A study of Mus musculus with 4 samples.

Results

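MSI2 is an RNA-binding protein of the Musashi family, and the regions described here are its deposited peaks over genes for long noncoding RNA in mouse intestinal epithelium. A peak was taken when it overlapped, by at least 1 base, a RefSeq gene of biotype lncRNA on mm10 and no protein-coding or small RNA gene span, with Neat1, Malat1 and chromosomes X and Y left out. The rule gave 427 of 16939 peaks in the TRE-Msi2 list, or 2.52% (95% interval 2.29% to 2.77%), and 308 of 12061 peaks in the WT list, or 2.55% (2.28% to 2.85%). They lay over 277 long noncoding RNA genes in the TRE-Msi2 list and 212 in the WT list, of 12406 such genes outside X and Y. Together the lists gave 735 of 29000 peaks and 303 genes.

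The peaks came from CLIP-seq, a method that links RNA to its bound protein with ultraviolet light, pulls the protein down with an antibody and reads the RNA that comes with it. The 2 TRE-Msi2 libraries came from mice carrying a doxycycline-inducible Msi2 transgene, as total epithelial cells after 24 hours of doxycycline. The 2 WT libraries came from wild-type mice, as intestinal crypts, with no doxycycline recorded. All 4 were on a C57BL6 background and used the same MSI2 antibody, with 2 pulses of 265 nm light. The labels do not name the promoter that drives the transactivator, and genotype, tissue fraction and doxycycline differed together, so their parts cannot be told apart. The authors pooled the 2 libraries of a genotype before calling peaks, so the spread between libraries is unknown and the genotypes were compared without a test. Scores are the authors' own, and their exact unit was not established. Peaks were built of bins of 200 nt. Some peaks of a single bin had fractional scores, such as 22.5 in Gm37323 in the TRE-Msi2 list, so scores are not plain read counts per bin. They were compared only within a list because the depth of the libraries is unknown. No RNA abundance or input library was used, so a peak can follow the amount of an RNA as much as its binding. As a check of the tissue, 7 of 7 enterocyte and 5 of 5 Paneth cell marker genes held a peak in each list, and 4 of 5 goblet markers did. Of 4 stem cell markers, 3 held a TRE-Msi2 peak and 2 a WT peak. Of 6 immune markers, Lyz2 and Cd74 held a peak in each list, and 0 of 6 stromal markers did; over all protein-coding genes, 24.9% held a TRE-Msi2 peak and 20.3% a WT peak.

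Musashi proteins recognise short single-stranded stretches of RNA built around a UAG core, and are best known for acting on messenger RNA, where they alter translation and stability. MSI2 is known in the intestinal epithelium for its part in stem cell activation and tumour growth. Long noncoding RNAs are transcripts without a long reading frame; some scaffold chromatin or RNA-binding proteins, some host small nucleolar RNAs in their introns, and most have no assigned role. Here 245 of the 277 TRE-Msi2 genes and 189 of the 212 WT genes carried only the name of a predicted model, a clone or a sequence record.

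Where a peak reached the surroundings of an annotated start, the bases beneath it could be read from RefSeq windows of GRCm38.p6, which run from 250 nt before a start to 50 nt after it. Peaks touched the windows of 13 genes in the TRE-Msi2 list and of 7 of these in the WT list. The reads lay on the strand of the gene in 6 of the 13 and on the opposite strand in 7. The window of Gm46178 (chr1:191120652-191120951, plus strand) is shown because its gene held the highest-scoring peak on a gene's own strand, with the bases inside the TRE-Msi2 peak in capitals.
Gm46178: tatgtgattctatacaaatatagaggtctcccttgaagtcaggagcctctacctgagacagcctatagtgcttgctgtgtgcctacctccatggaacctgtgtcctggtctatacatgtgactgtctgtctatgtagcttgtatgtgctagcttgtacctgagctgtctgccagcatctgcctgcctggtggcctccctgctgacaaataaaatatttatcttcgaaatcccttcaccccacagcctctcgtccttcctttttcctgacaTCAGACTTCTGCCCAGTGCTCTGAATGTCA
The window of Gm15564 (chr16:35981798-35982097, minus strand) is shown as a second own-strand peak near a start, with the same use of capitals.
Gm15564: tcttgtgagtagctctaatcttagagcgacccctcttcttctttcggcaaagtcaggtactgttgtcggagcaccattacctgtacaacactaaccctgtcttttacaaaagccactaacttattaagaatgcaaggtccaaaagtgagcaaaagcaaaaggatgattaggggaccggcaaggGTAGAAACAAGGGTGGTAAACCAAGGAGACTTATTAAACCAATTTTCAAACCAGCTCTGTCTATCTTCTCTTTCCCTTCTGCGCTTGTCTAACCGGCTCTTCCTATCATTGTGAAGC
The windows of Gm11274 (chr13:21767879-21768178, plus strand) and Gm42004 (chr5:113812409-113812708, plus strand) are shown because peaks of the opposite strand reached into both. The windows also carry nearly the same bases. The TRE-Msi2 peak at Gm11274 ran from -0.397 to 0.002 kb of the annotated start, so only a few of its bases lay in the gene span. The peak at Gm42004 lay short of the start that this window belongs to. It also reached 98 bases into another window of Gm42004, chr5:113812190-113812489.
Gm11274: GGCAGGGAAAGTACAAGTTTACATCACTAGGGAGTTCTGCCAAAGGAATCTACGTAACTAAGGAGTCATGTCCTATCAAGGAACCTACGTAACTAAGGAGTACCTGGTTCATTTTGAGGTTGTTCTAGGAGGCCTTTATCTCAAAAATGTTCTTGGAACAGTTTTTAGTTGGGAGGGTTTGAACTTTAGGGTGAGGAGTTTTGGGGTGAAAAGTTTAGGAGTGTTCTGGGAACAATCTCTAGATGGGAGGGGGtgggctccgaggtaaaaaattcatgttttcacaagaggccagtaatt
Gm42004: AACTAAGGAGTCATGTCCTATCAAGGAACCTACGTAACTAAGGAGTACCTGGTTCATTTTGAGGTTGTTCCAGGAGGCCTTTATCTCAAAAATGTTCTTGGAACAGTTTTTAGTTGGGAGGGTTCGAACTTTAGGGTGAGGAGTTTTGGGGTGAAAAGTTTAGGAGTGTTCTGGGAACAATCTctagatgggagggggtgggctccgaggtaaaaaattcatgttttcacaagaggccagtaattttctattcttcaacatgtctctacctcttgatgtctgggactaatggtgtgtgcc
Set against each other with a shift of 55 nt, the windows of Gm11274 and Gm42004 had 243 of 245 bases in common, although they lie on different chromosomes. The windows of Gm42031 on chromosome 8 and Gm43305 on chromosome 14, both under peaks of the gene's own strand, had 294 of 300 bases in common with no shift. Of the 13 genes with a window under a peak, 10 (76.9%, 46.2% to 95%) shared a run of 20 bases with a window on another chromosome. Of the 9290 long noncoding RNA genes with a window, 29.4% did. A gene counted if any of its windows shared such a run. This comparison was chosen after the sequences were seen and was not tested. Reads of near-identical copies may be divided between loci. The peaks at the starts of Gm11274, Gm42004, Gm42031 and Gm43305 are therefore uncertain as to their source. For the rest of the 10 genes (B230220B15Rik, Gm35279, Gm39813, Gm40843, Gm41501 and LOC108167564), a shared run of 20 bases was found. Their windows were not compared with a shift, so longer likeness may have been missed. Gm39813 and Gm40843 each shared such a run with Gm42031 and Gm43305, and Gm35279 shared one with Gm41501. Whether reads at the starts of the rest of the 10 genes are divided between loci was not tested. Whether the windows belong to a repeat family was not tested.

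The Musashi consensus was searched as A or G, then 1 to 3 T, then AGT, written as DNA. Read in the direction of the reads, the Gm46178 window held 1 match (ATAGT), before the peak, and the Gm42004 window held 1 outside the peak. The Gm15564 and Gm11274 windows held 0. The stretches in capitals held 0 matches in all 4 windows. On the gene strand, 28.2% of all 32851 windows held at least 1 match, and on either strand 47.3% did. The bare core TAG occurred 8 times on the read strand within the peak part of Gm11274, 4 times in that of Gm42004, 1 time in that of Gm15564 and 0 times in the 30 nt of Gm46178. Over all windows, on the gene strand, the median was 3 per 300 nt. These matches describe the letters and are not binding sites.

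More of the peaks with a known gene strand lay opposite to the long noncoding RNA gene than on its strand. The strand was given for the genes of 331 TRE-Msi2 and 247 WT peaks. Of these, 153 TRE-Msi2 peaks lay on the gene strand, or 46.2% (40.8% to 51.8%), and 178 on the opposite strand only. In the WT list 97 did, or 39.3% (33.1% to 45.7%), and 150 lay on the opposite strand only. The TRE-Msi2 interval includes an even split, and the WT interval does not. Peaks over protein-coding genes alone, assigned in the same way, were on the gene strand in 86.8% of 8676 TRE-Msi2 cases (86.1% to 87.5%) and 84.9% of 6014 WT cases (84.0% to 85.8%). The intervals of the noncoding and protein-coding genes did not overlap in either list; they cover counting error only, and peaks of 1 gene are not independent. Reads opposite to a gene do not match its annotated transcript, so the counts above are of gene spans and not of RNAs. Within a list, a peak of each strand at 1 place was found for 0 of the 427 TRE-Msi2 peaks (up to 0.86%), where 0.0413% of the whole list had one, and for 0 of the 308 WT peaks (up to 1.19%), where 0 of the whole list did. Between the lists, 9 TRE-Msi2 peaks (2.11%, 0.968% to 3.96%) touched a WT peak of the opposite strand, where 1.45% of the whole list did, and 9 WT peaks (2.92%, 1.35% to 5.47%) touched such a TRE-Msi2 peak, where 2.06% did. Among them, the same bin of Ctrcos, Gm5113, Sox1ot, 9830132P13Rik and Gm35880 was on the gene strand in TRE-Msi2 and opposite in WT. These genes were chosen after their values were seen. The strand of every peak was taken as deposited, and whether it is right at such bins was not tested.

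**Figure D1:**
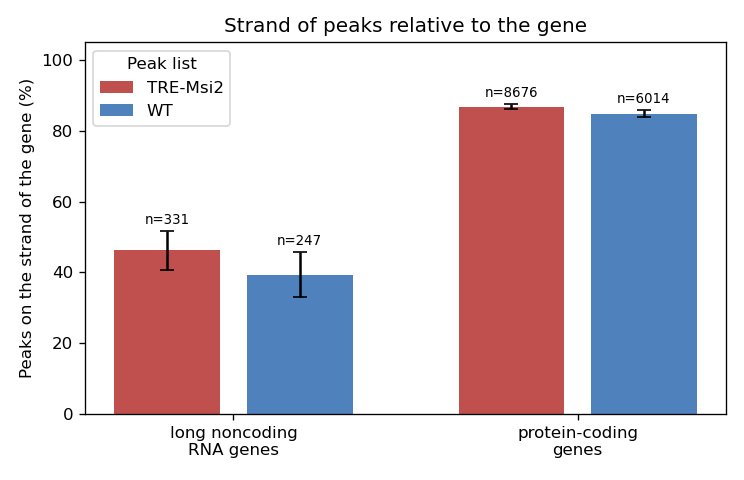
Share of peaks, in percent, that lay on the strand of the gene, for peaks over long noncoding RNA genes (left pair) and over protein-coding genes alone (right pair), in the TRE-Msi2 and WT lists. Bars give the share and lines its exact 95% binomial interval; both noncoding shares (46.2% and 39.3%) lie well below both protein-coding shares (86.8% and 84.9%).

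The share on the gene strand was no higher among high-scoring peaks. Among peaks at or above the median of their list it was 44.5% in TRE-Msi2 and 38.6% in WT, and below the median it was 47.9% and 40.0%. Among peaks in the top 10% by score it was 41.7% of 36 in TRE-Msi2 and 31.4% of 35 in WT. Peaks of 1 gene mostly shared a strand, in 87 of 107 TRE-Msi2 genes and 61 of 65 WT genes with at least 2 of these peaks. Of 83 TRE-Msi2 genes with a given strand and at least 2 of these peaks, 27 had all peaks on their own strand, 41 had all peaks on the opposite strand and 15 had both. In the WT list these were 17, 30 and 4 of 51 genes.

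In their scores the peaks over long noncoding RNA genes were close to the rest of each list. The median was 24.3 in TRE-Msi2, with quartiles of 21.1 and 29.8, against 24.7 over the whole list (21 and 30). In WT it was 19, with quartiles of 16 and 25, against 19 over the whole list (16 and 23.5). In the top 10% of their list by score stood 10.1% of the TRE-Msi2 peaks, where 10.0% of the whole list did, and 13.0% of the WT peaks (9.44% to 17.3%), where 10.2% did. A single bin made up 55.3% of TRE-Msi2 peaks (58.8% of the list) and 62.7% of WT peaks (63.2%). The widest peaks were 4400 nt in TRE-Msi2 and 2800 nt in WT, and in all they covered 179 kb and 102 kb.

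The highest score of any TRE-Msi2 peak in the whole list, 124.3, was in this set, at chr17:39846256-39848255, and was assigned to AY036118. The WT peak at the same place scored 94.0. Only 144 bases of the TRE-Msi2 peak and 544 of the WT peak lay in the AY036118 span, and the reads ran opposite to it. Both peaks covered all 1849 nt of Rn18s-rs5, which RefSeq annotates as a pseudogene and whose name marks it as related to 18S ribosomal RNA. This peak met the rule because a pseudogene is neither protein-coding nor a small RNA gene; without peaks that touch a pseudogene or other span, 416 TRE-Msi2 and 300 WT peaks were left.

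The other leading peaks were mostly lone peaks in genes of no known role. Gm46178 (chromosome 1) scored 116 in TRE-Msi2 and 58.5 in WT, on its own strand and beginning inside the start window shown above. Gm30821 (chr18:68691947-68692346) scored 112 and 102.5 at the same coordinates in both lists; its strand was not given. D130009I18Rik (chromosome 14) scored 62 in TRE-Msi2 and 90.5 in WT, and its reads ran opposite to the gene. Gm36876 scored 72.3 in TRE-Msi2 and 57.5 in WT, and Gm46595 scored 67 in both, again opposite to the gene. Gm19951 (63 and 62.5) and the site shared by Gm31452 and Gm41051 (63.5 and 59) had a peak on the strand of Gm19951 and of Gm31452. Each of these genes held 1 such peak per list. AI506816 (chromosome 5) held 5 TRE-Msi2 and 3 WT peaks, all on its own strand, with top scores of 62.5 and 39.5. Gm39813 scored 46.6 in TRE-Msi2 and 54.3 in WT, opposite to the gene. Its peak, the same in both lists, ran from -0.527 to 0.072 kb of the annotated start, so most of it lay outside the span. Of the 10 highest peaks in each list, 4 were on the gene strand, 5 opposite and 1 over a gene of unstated strand.

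**Figure D2:**
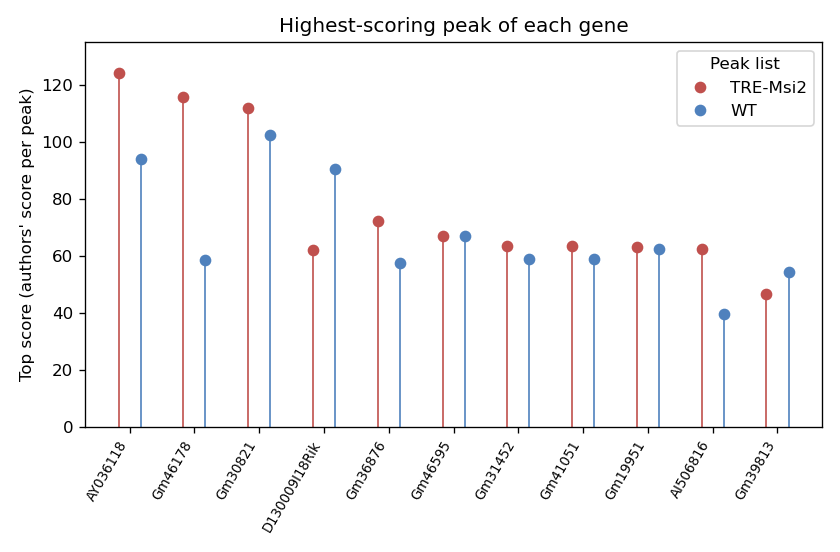
Score of the highest peak of each of the 11 genes that rank in the top 10 of either list, with the TRE-Msi2 value on the left and the WT value on the right of each pair. Scores are the authors' score per peak and are not on a common depth, so the 2 values of a gene show presence in both lists rather than a change; all 11 genes stand in both lists, and the Gm31452 and Gm41051 pairs show the same peak.

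Most genes held a single peak. In TRE-Msi2, 61.4% of the 277 genes held 1, 29.6% held 2 and 9.03% held at least 3; in WT these shares were 69.3%, 18.9% and 11.8% of 212 genes. Tug1, a broadly expressed long noncoding RNA, was among the genes with the most: 8 TRE-Msi2 peaks with scores from 14.6 to 27, and 5 WT peaks with scores from 15.5 to 20, all on the strand of the gene and spread from near its start to its end. All 5 WT peaks of Tug1 were overlapped by a TRE-Msi2 peak. Its top scores stood at percentile 64.9 of the TRE-Msi2 list and percentile 60.1 of the WT list, so Tug1 was marked by the number of peaks and not by their height. Gm42031 held 4 TRE-Msi2 peaks of up to 46 and 5 WT peaks of up to 29.7, and Gm43305 held 4 of up to 43.1 and 3 of up to 37.3, all on the gene strand. Peaks covered much of both short spans (5.89 kb and 5.05 kb), and in Gm42031 the first peak began before the annotated start in both lists. As given above, the start windows of Gm42031 and Gm43305 were near-identical, so the source of the peaks there is uncertain. LOC108167564 held 6 TRE-Msi2 and 2 WT peaks, all on its strand, with top scores of 28.5 and 15.7.

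Other genes with many peaks held them all on the opposite strand. In 4930578N18Rik (chromosome 16, 33.5 kb) there were 6 TRE-Msi2 peaks of 26.3 to 47.1 and 7 WT peaks of 13.6 to 38, all on the minus strand of a plus-strand gene and gathered in the middle of the span. In Gm32247 (chromosome 6, 39.9 kb) there were 8 TRE-Msi2 peaks of 21 to 43 and 6 WT peaks of 15 to 26, all on the minus strand and all in the last part of this plus-strand span. Gm42252 held 4 opposite TRE-Msi2 peaks of up to 35 and 4 opposite WT peaks of up to 20. Gm7854 held 2 opposite TRE-Msi2 peaks of up to 34 and 3 opposite WT peaks of up to 37.3, and A130077B15Rik held 1 of 46.6 and 3 of up to 50.3. Banf2os, with 5 TRE-Msi2 and 2 WT peaks, had no given strand. All 7 WT peaks of 4930578N18Rik and all 6 of Gm32247 were overlapped by a TRE-Msi2 peak.

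**Figure D3:**
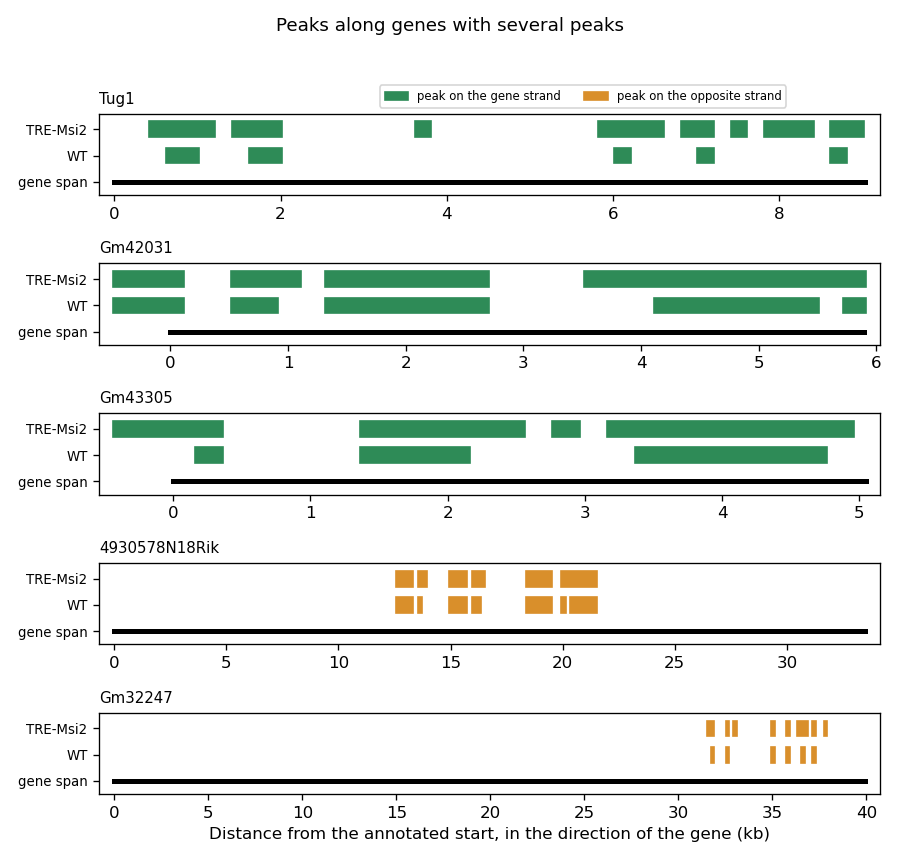
Peaks along 5 genes with several peaks, drawn by distance in kb from the annotated start in the direction of the gene, with TRE-Msi2 peaks above WT peaks and the gene span as a black line. Green peaks lie on the gene strand and orange peaks on the opposite strand: those of Tug1, Gm42031 and Gm43305 are all on the gene strand, and those of 4930578N18Rik and Gm32247 all opposite.

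Named long noncoding RNAs were few. Of 21 host genes of small nucleolar RNAs, 8 held a TRE-Msi2 peak of any kind and 6 a WT peak, where 4.19% and 3.24% of all long noncoding RNA genes outside X and Y did. In 5 and 4 of the host genes a peak met the rule, where 2.23% and 1.71% of all did, since peaks that touch a small RNA span were left out. Snhg14, the long imprinted transcript that runs antisense to Ube3a, held 6 TRE-Msi2 peaks (top score 26.3), of which 4 were on its strand, and 5 WT peaks (23), of which 4 were. Snhg15 scored 31 in TRE-Msi2 and 18 in WT, and Zfas1 scored 29 and 19, each as 1 peak on the gene strand. Snhg17 held 2 peaks in each list, 1 of them on its strand. Snhg11 held 2 TRE-Msi2 peaks of up to 24 and 0 WT peaks. Gas5 and Snhg1 held peaks in both lists, but these touched spans the rule leaves out. Of 7 imprinted long noncoding RNA genes listed apart from Snhg14, Meg3 and Kcnq1ot1 held peaks, and 0 of these peaks met the rule. Of 9 genes in a list of mainly microRNA hosts, Mir22hg held 1 TRE-Msi2 peak of 20 on its strand. Mirt1, listed with them although it is not a microRNA host, held 1 opposite peak in each list.

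Of 16 broadly expressed or well-studied genes, 5 held such a peak in each list, against the same 2.23% and 1.71% of all long noncoding RNA genes. The genes of this list and of the host list were chosen as well known, and their RNA levels were not measured here. Norad, a cytoplasmic RNA that sequesters Pumilio proteins, lay under 1 TRE-Msi2 peak of 4400 nt with a score of 29.5, at chr2:156388065-156392464, which covered most of its 4.92 kb span. In the WT list 3 peaks of 800 to 1800 nt with scores of 21.1 to 25 lay over the same stretch. These peaks also lay in Gm14170, whose minus strand they share, and the strand of Norad itself was not given. Oip5os1, known as Cyrano, directs the decay of a microRNA; it held 3 TRE-Msi2 peaks of up to 25 and 1 WT peak of 15, on its strand. Morrbid, which regulates the lifespan of myeloid cells, held 1 peak in each list (44 and 25), and Tunar, a neural gene, held 2 and 1 (top scores 37 and 32); the reads in Morrbid and Tunar ran opposite to the gene and so do not match their transcripts.

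Peaks over long noncoding RNA genes were gathered at gene ends less than those over protein-coding genes. Along the span, followed the way the reads run, 11.9% of TRE-Msi2 peaks (9.02% to 15.4%) and 12% of WT peaks (8.60% to 16.2%) were centred in the last 10% of the span, where 43.3% and 48.0% of peaks over protein-coding genes alone were. With peaks on the gene strand in both classes, 19% of TRE-Msi2 (13.1% to 26.1%) and 24.7% of WT peaks (16.5% to 34.5%) lay there, against 50.3% and 57.0% for protein-coding genes. Peaks of the opposite strand stood at 8.43% and 6%. In the first 10% as the reads run, which for them is the annotated end of the gene, they stood at 16.85% and 17.33%. Gene spans include introns, and exons were not used here, so the place along the spliced RNA is not known. Median spans were 23.3 kb for the TRE-Msi2 and 25.9 kb for the WT genes with such a peak, against 8.39 kb over all long noncoding RNA genes outside X and Y.

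**Figure D4:**
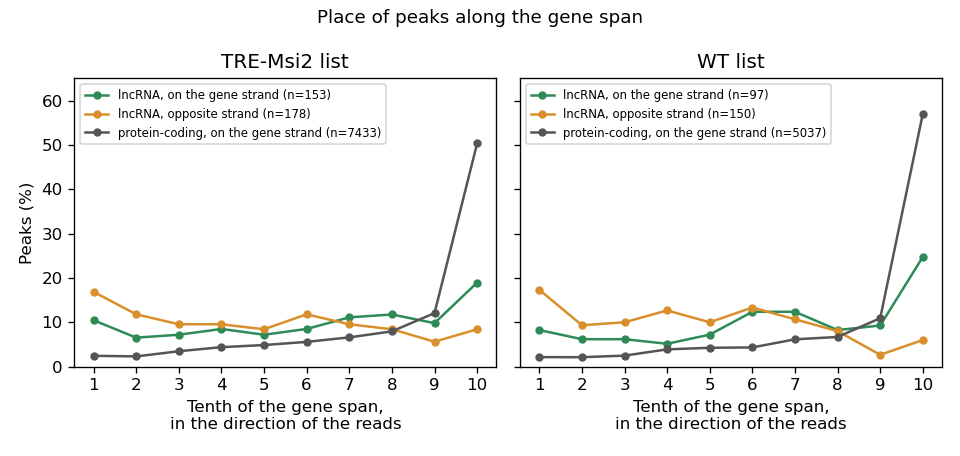
Share of peaks in each of 10 equal parts of the gene span, numbered along the course of the reads, for the TRE-Msi2 list (left) and the WT list (right). Green points are peaks on the strand of a long noncoding RNA gene, orange points peaks of the opposite strand and grey points peaks on the strand of a protein-coding gene; the last of the 10 holds 50.3% and 57.0% of the grey peaks, and 19% and 24.7% of the green ones.

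Some of these peaks lay beside protein-coding genes. Within 5 kb of a protein-coding span were 15.7% of the TRE-Msi2 peaks (12.4% to 19.5%) and 14.9% of the WT peaks (11.2% to 19.4%), and the median distance was 29.1 kb and 29.2 kb. Near peaks of the opposite strand mostly ran the same way as the neighbouring protein-coding gene: where its strand was given, 17 of 18 in TRE-Msi2 and 14 of 15 in WT did, against 16 of 30 and 11 of 20 for near peaks on the strand of the noncoding gene. Peaks of the opposite strand that lay within 5 kb past the end of such a gene numbered 6 of 178 and 7 of 150. An example is 1700112D23Rik on chromosome 3, whose TRE-Msi2 peaks of 34.4 and 20 and WT peaks of 22.8, 19.7 and 19 ran opposite to it. They began 118 to 2118 nt past the end of Slc2a2, which encodes the glucose transporter of the basolateral enterocyte membrane, and on its strand. Whether these reads come from extended transcripts of neighbouring genes was not tested.

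Most WT peaks over long noncoding RNA genes had a TRE-Msi2 counterpart on the same strand. The share was 87.0% (82.7% to 90.6%), where 91.3% of the whole WT list and 91.1% of WT peaks over protein-coding genes alone had one. A WT counterpart was found for 53.9% (49.0% to 58.7%) of the TRE-Msi2 peaks, where 57.6% of the longer TRE-Msi2 list and 58.2% of its peaks over protein-coding genes alone had one. The same start and end occurred in the other list for 27.9% of TRE-Msi2 peaks (34.1% of the list) and 38.6% of WT peaks (47.8%). The share differed by score and by width, while the median score was 24 for single-bin and 25 for wider TRE-Msi2 peaks and 19 and 17.7 for those of WT. At or above the list median 66.2% of TRE-Msi2 and 93.1% of WT peaks were shared, and below it 41.9% and 80.5%. Of peaks wider than 1 bin 77.0% of TRE-Msi2 and 99.1% of WT peaks were shared, and of single-bin peaks 35.2% and 79.8%.

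Sharing was also counted by strand. Of TRE-Msi2 peaks on the gene strand 50.3% (42.1% to 58.5%) were shared, and of those opposite 60.7% (53.1% to 67.9%). Of WT peaks on the gene strand 89.7% (81.9% to 94.9%) were shared, and of those opposite 87.3% (80.9% to 92.2%). Within each list the intervals of the strands overlap, and no test was made. By gene, 186 long noncoding RNA genes held peaks that met the rule in both lists. These are 67.1% of the TRE-Msi2 genes and 87.7% of the WT genes. Of protein-coding genes with a peak, 76.8% of the TRE-Msi2 and 94.1% of the WT genes stood in both. For protein-coding genes a peak of any kind counted, so these measures are not alike.

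**Figure D5:**
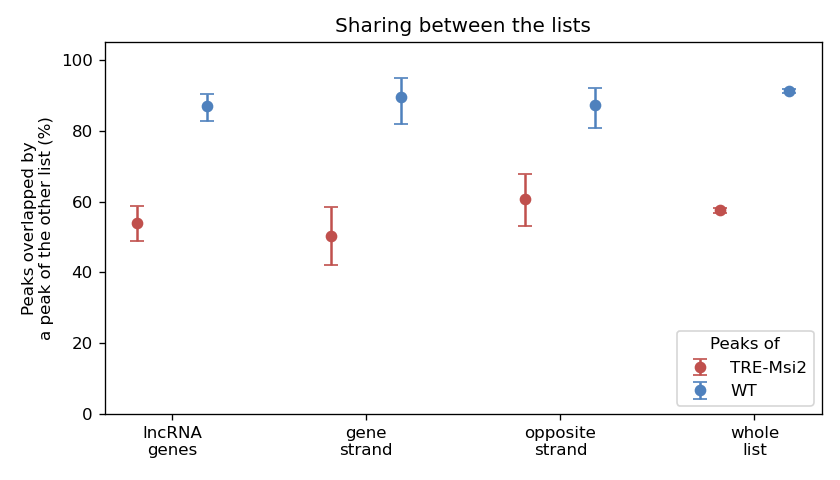
Share of peaks, in percent, overlapped by a peak of the other list on the same strand, for TRE-Msi2 peaks (left point of each pair) and WT peaks (right point), with exact 95% binomial intervals. Peaks over long noncoding RNA genes (53.9% and 87.0%), those on either strand of the gene, and the whole lists (57.6% and 91.3%) are plotted side by side; the whole WT list lies just above the interval of the WT peaks over long noncoding RNA genes.

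The genes with no peak of any kind in the other list numbered 87 of 277 for TRE-Msi2 and 23 of 212 for WT. Of the 87, 71 held 1 of these peaks, 14 held 2 and 2 held 3. Of the 23, 22 held 1 and 1 held 2. Among protein-coding genes with a peak, 76.8% of the TRE-Msi2 and 94.1% of the WT genes also held a peak in the other list. The highest TRE-Msi2 scores over genes with no WT peak of any kind were 39 in G630071F17Rik, 37 in Gm20753, 32 in Gm41487, and 31 in 9430037G07Rik and in Gm31751. Of these, the peak of Gm20753 was on the gene strand, those of Gm41487, 9430037G07Rik and Gm31751 were opposite, and the strand of G630071F17Rik was not given. The highest WT scores over genes with no TRE-Msi2 peak were 28 for the single peak over Gm33906 and AA536875, on the strand of both, 25 in Gm11110 and in Gm30464, and 19 in 9330133O14Rik, which tied with Gm19303 and B430212C06Rik. These top scores stood between percentiles 79.0 and 91.9 of the TRE-Msi2 list and between percentiles 53.4 and 87.5 of the WT list. Other genes with no peak in the other list stood lower. Examples are Gm34048 and Gm40678 at 20 in TRE-Msi2, and Gm51669 and AU023762 at 15 in WT. A score of 20 stood at percentile 16.65 of the TRE-Msi2 list, and 15 at percentile 17.98 of the WT list.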

How the data were processed

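MSI2 CLIP-seq was made from 2 TRE-Msi2 and 2 WT libraries. The authors deposited 1 peak list per genotype. The names of the lists mark them as merged, from Piranha and with duplicates removed. They do not say whether merging came before peak calling. Cutadapt, TopHat and the builds mm9 and mm10 stand in the submitters' processing notes, with no version given in the sources used here. Each deposited row joins a score and a p-value; the p-value was not used. The depth of the libraries is unknown. Contig names and largest coordinates place the lists on mm10.

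Peaks were set against RefSeq gene spans of GRCm38.p6 (49980 placed genes) with Python 3.11.15 and pandas 2.3.3. Gene strands came from RefSeq start windows, available for 9290 of 12406 long noncoding RNA genes outside X and Y. A peak over several such genes counted as on the gene strand if it matched any. Peaks were called shared at 1 base on the same strand. Intervals are exact Clopper-Pearson 95% intervals (scipy 1.17.1) and cover counting error only. The assignment was tested on simulated peaks. The members, gene lists and rules were chosen with earlier results of these data known. Named genes were the 10 with the highest score and the 10 with the most peaks per list, the 5 with the highest score and no peak in the other list, the 5 widest, the 5 highest shared sites and those of the 4 gene lists; Gm15564, Gm11274 and Gm42004 were chosen after their values were seen, for their windows. The comparison of strands was added after the data were seen.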

Additional observations from a re-analysis of the deposited data

How the results depend on the processing

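Each list pools 2 libraries, so leaving out a library was not possible. No paired analysis was possible because each deposited list pools the libraries of a genotype and its columns carry no replicate number. Under 10 alternatives, 86 of 112 recomputed values stayed within the interval of the reported value, or within 1.5 times a count, and 26 moved.

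With both lists limited to peaks at or above their median score, so that a partner also had to pass, 210 TRE-Msi2 and 159 WT peaks over 164 and 129 genes were left, the median scores were 30 and 25, the shares overlapped were 44.8% and 66.0%, and 20.1% of WT peaks lay within 5 kb of a protein-coding span. With the TRE-Msi2 list cut by score to as many peaks as WT, its median score was 27 and the shares overlapped were 61.4% for TRE-Msi2 and 71.8% for WT. With both lists limited to single-bin peaks, 236 and 193 were left, the shares overlapped were 34.3% and 42.0%, and 19.9% of TRE-Msi2 peaks lay within 5 kb of a protein-coding span. With at least 50% of the own bases shared, the TRE-Msi2 share overlapped was 49.0%. With peaks on the strand of the gene, 153 TRE-Msi2 and 97 WT peaks over 102 and 65 genes were left, 19% and 24.7% lay in the last 10% of the span, and 21.6% and 22.7% within 5 kb of a protein-coding span. Fewer peaks in these alternatives follow from their construction; for the other moves the cause was not tested. The share on the gene strand, whose 7 alternatives were added after seeing the data, ran from 43.3% to 49.2% in TRE-Msi2 and from 36.2% to 39.8% in WT.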

Other observations

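Besides AY036118, a few peaks over long noncoding RNA genes also touched a pseudogene. Gm33141 on chromosome 8 held 2 such TRE-Msi2 peaks of 30.3 and 21 and 1 WT peak of 24, which overlapped Ces2d-ps, a transcribed pseudogene of the carboxylesterase family, whose enzymes hydrolyse esters in gut and liver. Gm1976 on chromosome 17 held 2 peaks in each list within 2700099C18Rik, with scores of 30 and 22 in TRE-Msi2 and 18.5 and 15 in WT. 1500004A13Rik on chromosome 3 held TRE-Msi2 peaks of 26.7 and 20 and a WT peak of 17.3 within 5830417I10Rik. Mm2pr on chromosome 5 held 2 TRE-Msi2 peaks of 20 each and 1 WT peak of 15 within Gm8615. For these peaks the gene of origin cannot be told from the spans.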
